A study of Mus musculus with 36 samples.

Results

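Retinoic acid is a small signalling molecule that cells make from vitamin A, and 9 genes that handle or sense it were followed in mouse pluripotent stem cells. They were taken from a fixed list by Ensembl identifier, and all 9 were found among the 49671 genes of the deposited table: Stra6, Dhrs3, Crabp1, Crabp2, Rara, Rarb, Rarg, Cyp26a1 and Cyp26b1. The study compared 3 conditional knockout lines, named Setd1a, Mll2 and Bod1L, each as knockout cells (KO), whose titles name tamoxifen, and as wild-type cells (WT), whose titles do not, so genotype and tamoxifen cannot be told apart. Each was grown in 3 media. EpiSC medium held Activin A and FGF2, and its cells are labelled as epiblast-like stem cells. FCS medium held LIF and serum, and its cells are labelled as cycling embryonic stem cells. The 2i medium held LIF with PD0325901 and CT99021, inhibitors of MEK and of GSK3, and its cells are labelled as naive embryonic stem cells. With 2 biological replicates in each of the 18 groups there were 36 libraries. Every line is a single line, so line and clone cannot be told apart, and p-values measure the spread between cultures of these lines.

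Vitamin A, or retinol, enters cells through the membrane receptor STRA6 and is oxidised to retinal and then to retinoic acid, while DHRS3 reduces retinal back to retinol. Inside the cell retinoic acid is carried by the binding proteins CRABP1 and CRABP2, and in the nucleus it binds the receptors RARA, RARB and RARG, which sit on DNA together with RXR partners. CYP26A1 and CYP26B1 are cytochrome P450 enzymes that break retinoic acid down. Several of these genes (Rarb, Cyp26a1, Dhrs3, Stra6) are textbook targets of retinoic acid itself, and the pathway is well known for driving embryonic stem cells out of pluripotency and for patterning the embryo. In the GRCm38 coordinates of the annotation the genes of import, retinal reduction and carriage are Stra6 (ENSMUSG00000032327) at chr9:58063788-58153996, Dhrs3 (ENSMUSG00000066026) at chr4:144892827-144928209, Crabp1 (ENSMUSG00000032291) at chr9:54764748-54773110, Crabp2 (ENSMUSG00000004885) at chr3:87948666-87953376. The receptors and degrading enzymes are Rara (ENSMUSG00000037992) at chr11:98927818-98974942, Rarb (ENSMUSG00000017491) at chr14:16430842-16575472, Rarg (ENSMUSG00000001288) at chr15:102234938-102257517, Cyp26a1 (ENSMUSG00000024987) at chr19:37697808-37701528 and Cyp26b1 (ENSMUSG00000063415) at chr6:84571414-84593908.

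Retinoic acid receptors classically bind a pair of 6-base cores, spaced by 5 bases (a DR5 element), and promoters of the members were searched for it. RefSeq (GRCm38.p6) gave 17 promoters for 8 of the 9 genes, each running from 250 bases before a transcription start to 50 bases after it, and Crabp2 had no entry. The core searched for on both strands was AGGTCA, the textbook nuclear receptor core, together with variants that differ from it near the start: AGTTCA was the first of these, GGGTCA was the next and GGTTCA was the last. A DR5 pair was found in the promoters of Cyp26a1 and Rarb and in 0.0974% of the 32851 promoters in the table. In the Cyp26a1 promoter it read TGAACTttgggTGAACT, on the strand opposite to the gene, at positions -32 to -16 from the start (chr19:37697776-37697792). In the Rarb promoter it read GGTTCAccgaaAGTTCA, on the strand of the gene, at positions -53 to -37 (chr14:16575513-16575529). Single cores occurred in 43.7% of all promoters and are no rarity. The 3 promoters below belong to Cyp26a1, which differed between lines and in a knockout, and to Rarb and Dhrs3, which moved together between media. Capitals mark every core, and each runs 5′ to 3′ on the strand of its gene (Cyp26a1 chr19:37697558-37697857, plus strand, Rarb chr14:16575427-16575726, minus strand, Dhrs3 chr4:144892577-144892876, plus strand, the first of its 3 starts).
Cyp26a1: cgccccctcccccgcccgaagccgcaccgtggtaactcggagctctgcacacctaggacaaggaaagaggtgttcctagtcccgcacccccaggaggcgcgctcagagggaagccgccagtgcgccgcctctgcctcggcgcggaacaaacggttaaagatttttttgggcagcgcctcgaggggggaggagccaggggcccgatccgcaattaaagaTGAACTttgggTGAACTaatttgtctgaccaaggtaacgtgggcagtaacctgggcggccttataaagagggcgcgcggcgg
Rarb: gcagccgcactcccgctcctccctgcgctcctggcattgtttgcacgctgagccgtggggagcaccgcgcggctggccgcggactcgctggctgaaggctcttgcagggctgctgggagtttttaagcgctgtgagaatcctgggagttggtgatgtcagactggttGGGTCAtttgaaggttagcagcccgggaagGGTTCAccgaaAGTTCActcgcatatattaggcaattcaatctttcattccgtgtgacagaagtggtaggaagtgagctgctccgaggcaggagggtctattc
Dhrs3: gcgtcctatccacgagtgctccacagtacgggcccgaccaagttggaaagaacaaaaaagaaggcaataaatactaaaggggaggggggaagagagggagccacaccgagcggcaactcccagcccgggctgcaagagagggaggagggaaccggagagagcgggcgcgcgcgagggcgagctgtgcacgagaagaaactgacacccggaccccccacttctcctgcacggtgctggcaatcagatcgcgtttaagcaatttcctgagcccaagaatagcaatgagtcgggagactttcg
The Dhrs3 promoter held none of the cores. It held 21 CpG dinucleotides, against 26 for Cyp26a1, 17 for Rarb and a median of 7 over all promoters. These matches are letters in a window and say nothing about binding in these cells.

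Depth was similar between libraries. Gene counts were 24.5 to 40.6 M a library (median 32.6 M). Naive markers (8 genes) summed to 17.6 to 534 CPM (counts scaled to library size) in EpiSC medium, 842 to 2773 CPM in FCS and 2489 to 3795 CPM in 2i, and within EpiSC medium the 4 libraries of the Setd1a line (353 to 534 CPM) stood above the other 8 (17.6 to 45.3 CPM). Primed markers (8 genes) summed to 314 to 1722 CPM in EpiSC medium, 350 to 1678 CPM in FCS and 111 to 324 CPM in 2i, where Fgf5 and Fgf8 were below 1 CPM in every library. Feeder or mesenchymal markers (8 genes) summed to 85.9 to 6769 CPM in EpiSC medium, 14.7 to 255 CPM in FCS and 13.7 to 53 CPM in 2i. Dcn and Lum were below 1 CPM in all FCS and 2i libraries, and the part of such cells in the EpiSC results was not tested. Library numbers in the file fall into an earlier series of 23 and a later series of 13, which holds all 12 EpiSC libraries and Setd1a KO 2i replicate 1, so EpiSC medium, its cell type and that series cannot be told apart. Of the targeted genes, Bod1l fell in its knockout to 33.6 to 62.2 CPM, against 166 to 345 CPM in WT. Setd1a was at 37.3 to 43.8 CPM in its knockout and 40.9 to 58.8 CPM in WT (edgeR log2 fold change over the 3 media -0.38 ± 0.14 SE, adjusted p = 0.0957). Kmt2b, the target in the Mll2 line, was at 113 to 145 CPM in the knockout and 89.6 to 210 CPM in WT (-0.28 ± 0.17, adjusted p = 0.744). The deleted exons are not given in the labels, so these gene totals do not check the last 2 knockouts.

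All 9 genes passed the low-count filter, but their levels spanned a wide range. Levels per length are given in TPM, counts per base of gene scaled to the same total in every library. Over the 36 libraries the receptors Rarg and Rara had medians of 45.6 TPM (11.2 to 147) and 17.2 TPM (7.35 to 37). The carrier Crabp1 had a median of 25.9 TPM but ran from 0.699 to 1756 TPM. Crabp2 had a median of 7.44 TPM (0.916 to 208), Dhrs3 4.55 TPM (0.194 to 32.7), Cyp26a1 4.13 TPM (0.642 to 365), Rarb 2.04 TPM (0 to 19.2) and Stra6 0.927 TPM (0.026 to 5.14). Cyp26b1 was lowest, with a median of 0.201 TPM (0.0412 to 2.84). These ranges overlap between all neighbours in the order. Rara and Rarg were well detected in every library, whereas Cyp26a1 and Crabp1 reached their highest levels in libraries of 1 line each. The plot of the members by library shows these patterns at once.

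**Figure D1:**
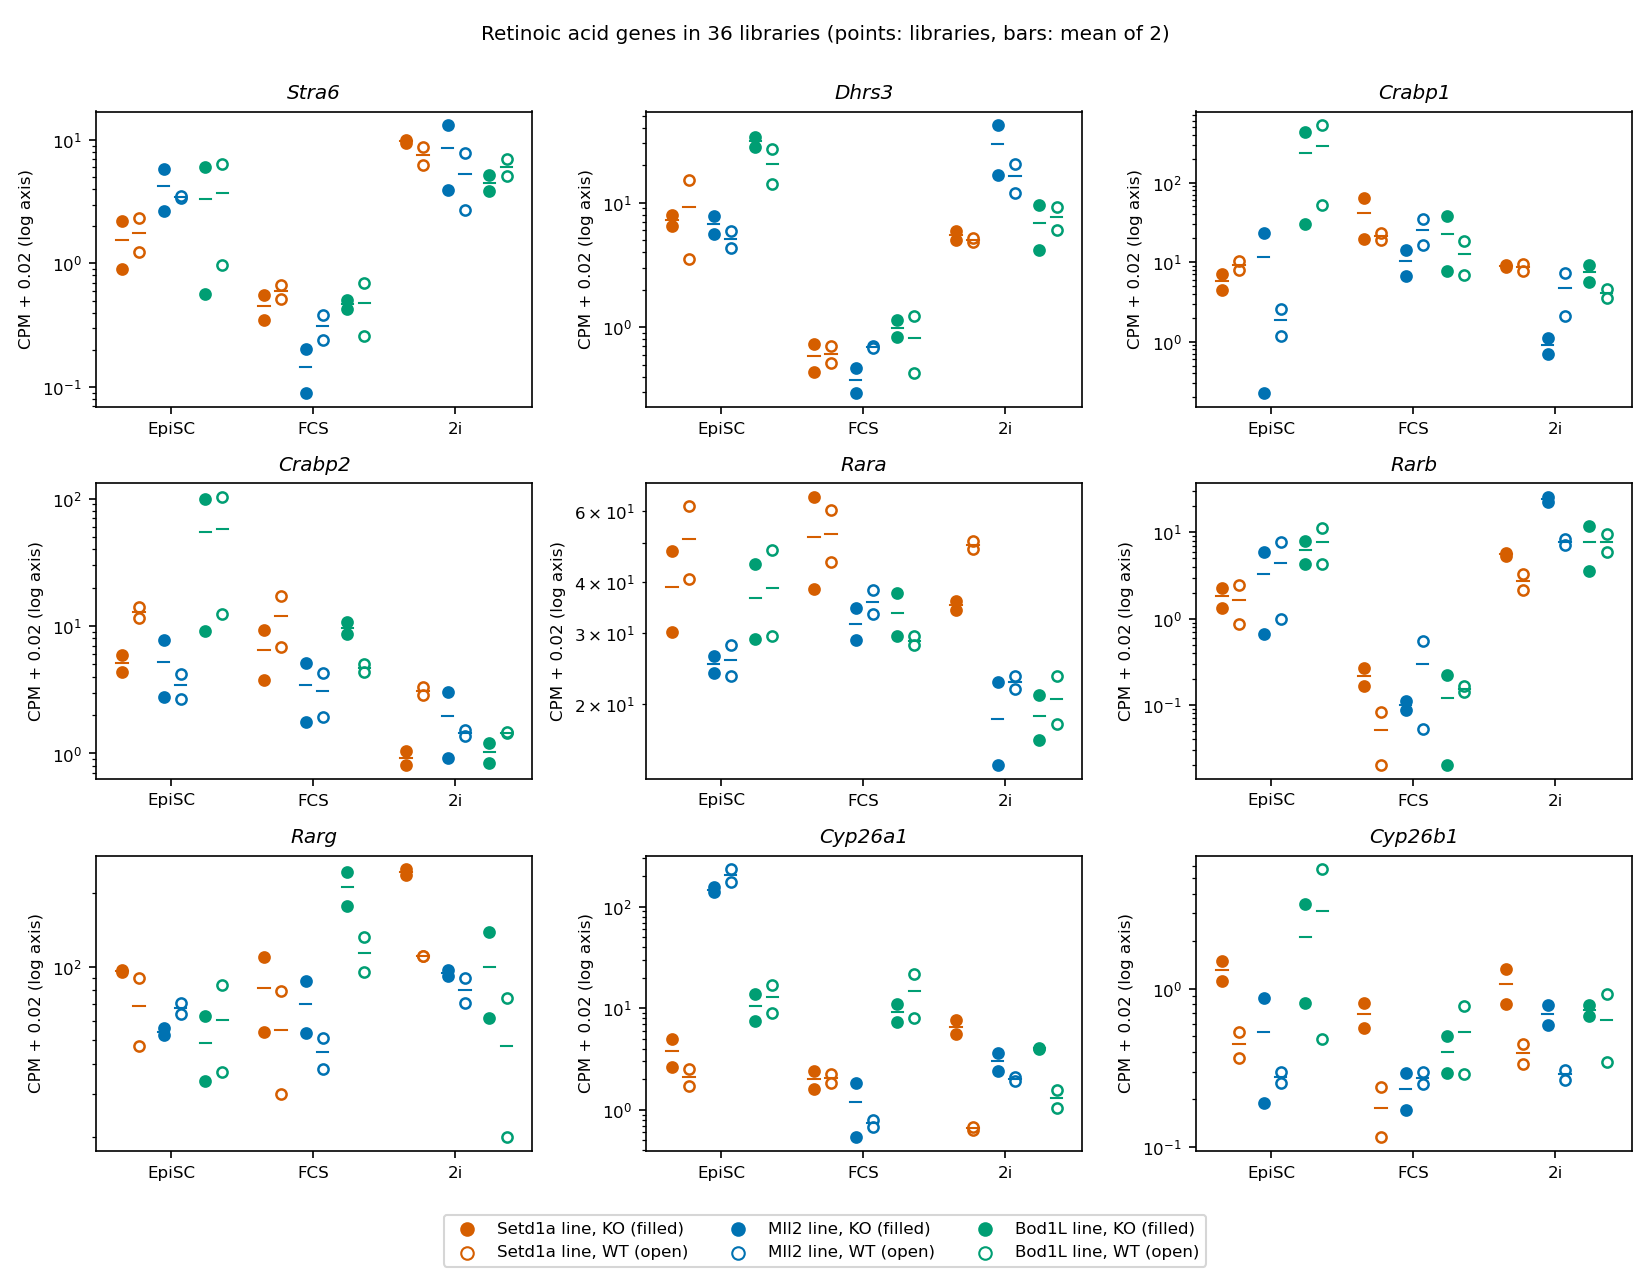
CPM of each gene, plus 0.02 so that counts of 0 can be drawn, on a log axis, for the 36 libraries in EpiSC, FCS and 2i medium. Points are libraries (filled KO, open WT, coloured by line) and bars are means of 2. Stra6, Dhrs3 and Rarb are low in all 12 FCS libraries, and Cyp26a1 is at 140 to 236 CPM in the 4 EpiSC libraries of the Mll2 line.

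The first question was how the genes differ between the states of pluripotency in WT cells. Medium was associated with large shifts, and they were not shared by all 9. Between FCS and 2i, Rarb, Stra6 and Dhrs3 fell and Crabp2 and Cyp26a1 rose, which makes 5 of 9 genes called where 27.8% of all 23501 tested genes were called (13.3% higher and 14.5% lower). Between EpiSC medium and FCS, Rarb, Dhrs3, Stra6, Cyp26a1, Crabp2 and Cyp26b1 rose, 6 of 9 genes against 41% of all genes (20.4% higher and 20.6% lower). Between EpiSC medium and 2i, Cyp26a1 and Crabp2 rose, 2 of 9 genes against 52.5% of all genes (25.1% higher and 27.4% lower), a share of members below the background. The median log2 fold change of the 9 genes was -0.20 for FCS against 2i (all genes -0.02), 1.35 for EpiSC against FCS (all genes -0.01) and 0.38 for EpiSC against 2i (all genes -0.07). These 3 comparisons share libraries, are averaged over the 3 lines and were called at an adjusted p below 0.05 with edgeR, with 6 libraries a medium.

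Stra6, the retinol importer, was at 0.955 to 6.41 CPM (median 2.85) in EpiSC medium, 0.218 to 0.673 CPM (median 0.429) in FCS and 2.68 to 8.74 CPM (median 6.61) in 2i. All 6 FCS libraries lay below all 12 others. It was lower in FCS than in 2i (log2 fold change -3.86 ± 0.56 SE, adjusted p = 1.72e-05) and higher in EpiSC medium than in FCS (2.72 ± 0.54, adjusted p = 0.000359), while the EpiSC and 2i ranges overlapped (-1.14 ± 0.49, adjusted p = 0.054). Dhrs3, which returns retinal to retinol, was at 3.5 to 27.2 CPM (median 9.97) in EpiSC medium, 0.409 to 1.2 CPM (median 0.669) in FCS and 4.86 to 20.6 CPM (median 7.63) in 2i. Again no FCS library reached any library of the other media. The drop in FCS against 2i was -3.64 ± 0.37 (adjusted p = 2.98e-07), the rise in EpiSC medium against FCS was 3.85 ± 0.38 (adjusted p = 1.2e-07), and EpiSC against 2i gave 0.21 ± 0.33 (adjusted p = 0.615).

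Among the receptors Rarb alone was called between media in WT cells. It was at 0.845 to 11.3 CPM (median 3.35) in EpiSC medium, 0 to 0.528 CPM (median 0.0912) in FCS and 2.14 to 9.48 CPM (median 6.48) in 2i. The FCS libraries held 0 to 17 reads each, and the 0 in Setd1a WT replicate 2 allows up to 0.0712 CPM (3 counts, counting error only). Rarb was lower in FCS than in 2i (-5.66 ± 0.75, adjusted p = 6.23e-06) and higher in EpiSC medium than in FCS (5.16 ± 0.74, adjusted p = 1.21e-05). EpiSC and 2i libraries overlapped (-0.51 ± 0.56, adjusted p = 0.471). Because 1793 of its 5265 exonic bases in a later GENCODE annotation (the deposited table counts 3034 bases) also belong to Top2b on the other strand, the strand-specific counting matters for this gene.

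Rara and Rarg were abundant in every library. Rara was at 23.4 to 61.6 CPM in EpiSC medium, 27.9 to 60.3 CPM in FCS and 17.8 to 50.6 CPM in 2i, and its largest difference was 0.41 ± 0.18 for FCS against 2i (adjusted p = 0.0954). Rarg was at 36.9 to 90.3 CPM in EpiSC medium, 30.1 to 133 CPM in FCS and 19.9 to 111 CPM in 2i, with log2 fold changes of -0.20 to 0.01 and standard errors of 0.30 to 0.31. Ranges overlapped between all media for both receptors.

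Of the carriers Crabp2 rose in EpiSC medium and Crabp1 was not called. Crabp2 was at 2.68 to 103 CPM (median 12) in EpiSC medium, 1.9 to 17.2 CPM (median 4.65) in FCS and 1.36 to 3.3 CPM (median 1.48) in 2i. It rose in EpiSC medium against 2i (2.89 ± 0.53, adjusted p = 9.85e-05), in EpiSC medium against FCS (1.30 ± 0.50, adjusted p = 0.0407) and in FCS against 2i (1.58 ± 0.51, adjusted p = 0.0231). Without Bod1L WT EpiSC replicate 1 the EpiSC against FCS value was 0.56 (adjusted p = 0.371), and leaving out any of 8 of the 12 libraries ended that call. The FCS against 2i call was lost with any of 7 of 12 libraries left out (adjusted p up to 0.0798). Crabp1 was at 1.17 to 529 CPM (median 9.12) in EpiSC medium, 6.87 to 34.6 CPM (median 18.8) in FCS and 2.07 to 9.59 CPM (median 5.96) in 2i, and no average difference was called (EpiSC against 2i 1.63 ± 0.71, adjusted p = 0.0597, FCS against 2i 1.79 ± 0.71, adjusted p = 0.0634).

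Both degrading enzymes were called higher in EpiSC medium than in FCS on average, Cyp26a1 through the Mll2 line alone and Cyp26b1 with an adjusted p close to the threshold. Cyp26a1 was at 1.71 to 236 CPM (median 13) in EpiSC medium, 0.654 to 21.7 CPM (median 2.04) in FCS and 0.611 to 2.1 CPM (median 1.29) in 2i. It rose in EpiSC medium against 2i (3.90 ± 0.31, adjusted p = 1.72e-09), in EpiSC medium against FCS (2.67 ± 0.30, adjusted p = 5.22e-07) and in FCS against 2i (1.24 ± 0.30, adjusted p = 0.00331), but these averages hide lines that differ. Cyp26b1 was at 0.233 to 5.71 CPM (median 0.405) in EpiSC medium, 0.0949 to 0.76 CPM (median 0.249) in FCS and 0.247 to 0.908 CPM (median 0.319) in 2i. Its rise against FCS (1.35 ± 0.53, adjusted p = 0.0469) was 0.44 (adjusted p = 0.504) without Bod1L WT EpiSC replicate 1, and any of 9 of the 12 libraries left out ended the call, as did edgeR's bias-adjusted quasi-likelihood (adjusted p = 0.122).

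Cyp26a1 was the gene that depended most on the line. In EpiSC medium WT cells of the Setd1a line had 1.71 and 2.5 CPM, those of the Mll2 line 174 and 236 CPM and those of the Bod1L line 17 and 9.06 CPM. In FCS the order changed: the Setd1a line had 2.25 and 1.83 CPM, the Mll2 line 0.777 and 0.654 CPM and the Bod1L line 21.7 and 8.07 CPM. In 2i the Setd1a line had 0.611 and 0.662 CPM, the Mll2 line 2.1 and 1.91 CPM and the Bod1L line 1.55 and 1.03 CPM. EpiSC against 2i was therefore 6.67 ± 0.60 in the Mll2 line, 3.33 ± 0.52 in the Bod1L line and 1.71 ± 0.54 in the Setd1a line, all 3 called (adjusted p = 8.81e-08, 5.76e-05 and 0.0385, with 38.9%, 31.8% and 12.9% of all genes called in these lines). EpiSC against FCS was called in the Mll2 line only (8.15 ± 0.65, adjusted p = 4.06e-08), where 22.4% of all genes were called, with 0.04 ± 0.50 in the Setd1a line (2.83%) and -0.19 ± 0.47 in the Bod1L line (21.7%), so the averaged rise rests on the Mll2 line. FCS against 2i was 3.52 ± 0.53 in the Bod1L line (adjusted p = 0.00019), 1.67 ± 0.53 in the Setd1a line (adjusted p = 0.0633) and -1.48 ± 0.53 in the Mll2 line (adjusted p = 0.0683). The fall in FCS against 2i of the 3 genes that moved together was called in every line: Rarb had -6.42, -4.76 and -5.81 in the Setd1a, Mll2 and Bod1L lines, Stra6 -3.70, -4.18 and -3.71, and Dhrs3 -3.07, -4.59 and -3.24 (adjusted p up to 0.0207, with 6.21%, 12.2% and 11.4% of all genes called in these lines). A test of whether the medium effect differs between lines, added after these values were seen, called Cyp26a1 (adjusted p = 1.8e-06) and Crabp1 (adjusted p = 0.0294), 2 of 9 genes where 3.89% of all genes were called. The Crabp1 call was lost without Bod1L WT EpiSC replicate 1 (adjusted p = 0.225) or any of 8 other libraries.

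Averaged over media, WT lines differed in 3 of 9 genes (F test, 14.7% of all genes called). Cyp26a1 was lower in the Setd1a line than in the Mll2 line (-2.25 ± 0.30) and the Bod1L line (-2.18 ± 0.30, F test adjusted p = 3.16e-05). Rara was higher in the Setd1a line, with 40.7 to 61.6 CPM in its 6 WT libraries, than in the Mll2 line (0.89 ± 0.18) and the Bod1L line (0.84 ± 0.18, F test adjusted p = 0.00138). Cyp26b1 was lower in the Setd1a line (-1.75 ± 0.52) and the Mll2 line (-1.92 ± 0.53) than in the Bod1L line (F test adjusted p = 0.0143), a call that ended without any of 3 Bod1L libraries (EpiSC replicate 1, 2i replicate 2 or FCS replicate 2, adjusted p up to 0.244). These F tests compare the 18 WT libraries within the edgeR fit of all 36 libraries.

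The same media were compared in the 18 KO libraries, which share no library with the WT comparisons, as an addition made after the WT values were seen. Both sets come from the same lines and the same fit. Same-numbered KO and WT cultures also deviated together (correlations of 0.401 to 0.848), so the KO values are no independent repeat. For FCS against 2i the KO cells gave -6.38 ± 0.75 for Rarb (adjusted p = 1.64e-06), -4.61 ± 0.58 for Stra6 (adjusted p = 3.96e-06) and -4.15 ± 0.39 for Dhrs3 (adjusted p = 8.18e-08). In FCS the KO libraries held 0 to 0.247 CPM of Rarb, 0.0686 to 0.532 CPM of Stra6 and 0.273 to 1.13 CPM of Dhrs3. In the 2i KO libraries Rarb had 3.59 to 25.7 CPM, Stra6 3.83 to 13.2 CPM and Dhrs3 4.12 to 42.2 CPM, so FCS and 2i did not overlap for any of the 3 genes. Crabp2 (2.30 ± 0.53, adjusted p = 0.00204), Crabp1 (2.46 ± 0.74, adjusted p = 0.0139) and Rara (0.73 ± 0.18, adjusted p = 0.00372) rose, making 6 of 9 genes called against 30.5% of all genes. Cyp26a1 had -0.62 ± 0.28 in KO cells (adjusted p = 0.098), a sign opposite to that in WT cells. EpiSC medium against FCS called 6 of 9 genes in KO cells (43.9% of all genes), with Dhrs3 at 4.29 ± 0.39, Rarb at 4.77 ± 0.72, Stra6 at 3.24 ± 0.56 and Cyp26a1 at 2.70 ± 0.29. EpiSC medium against 2i called 7 of 9 (49.4% of all genes), among them Crabp2 at 3.22 ± 0.54, Crabp1 at 2.68 ± 0.74 and Cyp26a1 at 2.07 ± 0.28 as rises and Rarg at -1.07 ± 0.31, Stra6 at -1.37 ± 0.49 and Rarb at -1.61 ± 0.57 as falls. The Cyp26a1 averages in KO cells also hide lines that differ. In EpiSC medium, FCS and 2i its KO libraries had 5.01 and 2.6, 1.59 and 2.42, and 7.6 and 5.54 CPM in the Setd1a line. In the same order the Mll2 line had 156 and 140, 0.515 and 1.82, and 3.62 and 2.39 CPM. The Bod1L line had 13.7 and 7.44, 11 and 7.33, and 3.98 and 4.04 CPM. EpiSC medium was thus below 2i in the Setd1a line.

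**Figure D2:**
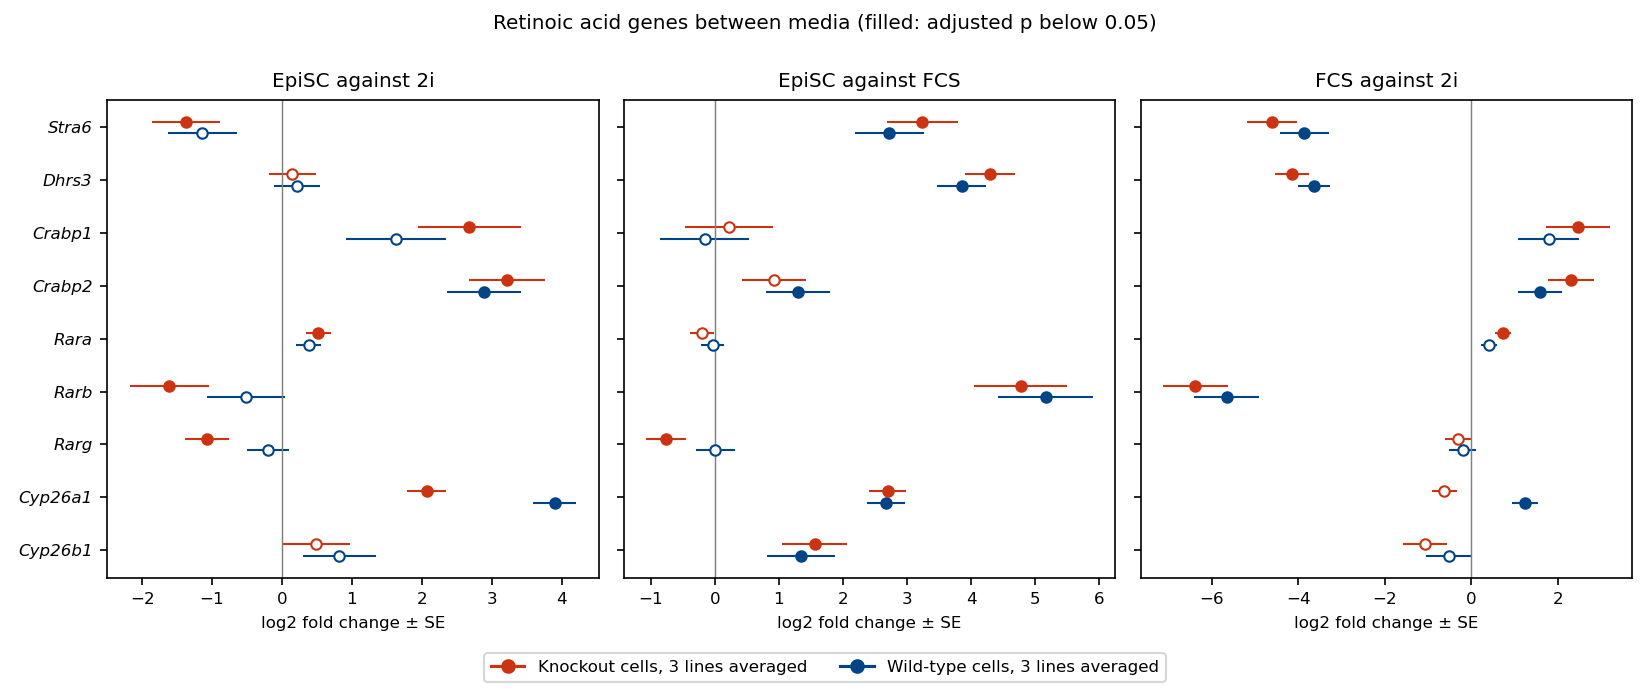
Log2 fold change ± SE of the 9 genes between media, averaged over 3 lines, in knockout cells (red) and wild-type cells (blue). Filled points have an adjusted p below 0.05. Stra6, Dhrs3 and Rarb lie between -3.64 and -6.38 for FCS against 2i in both, and Cyp26a1 lies on opposite sides of 0.

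Rarb, Stra6 and Dhrs3 also varied together across libraries, as a description over 36 libraries that share lines, media and depth. Pearson r of log2 CPM was 0.87 between Rarb and Dhrs3, 0.82 between Rarb and Stra6 and 0.72 between Stra6 and Dhrs3. Crabp1 and Crabp2 had an r of 0.68, and Cyp26a1 had no r above 0.23 with any other member. Among 12238 genes ranked, those most like Rarb were Igdcc3 (0.93) and Rgma (0.92), and Igdcc3 was also among the 2 most like Dhrs3 (0.91, with Wwtr1 at 0.90) and Stra6 (0.87, with Add1 at 0.88). The genes most like Cyp26a1 were Aplnr (0.92) and Lhx1 (0.87). Crabp2 was most like Cxcl12 (0.86) and Khk (0.82), Rara most like Wscd1 (0.84) and D1Ertd622e (0.80), and Rarg most like Kifc1 (0.80) and Gtse1 (0.75). The values for Cyp26b1 (Boc, 0.77, Kcp, 0.76) and Crabp1 (Fgf15, 0.69, Gpatch11, 0.69) were lower.

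Genes that respond to retinoic acid in embryos and differentiating cells (24 genes, all tested, 1 of which is also in the list of other pathway genes) were lower in FCS than in 2i more often than higher. In WT cells 14 fell and 2 rose, with a median log2 fold change of -2.01 against -0.02 for all genes, and in KO cells 12 fell and 2 rose, with a median of -1.59 against 0.04. Of all genes 14.5% fell and 13.3% rose in WT cells, and 30.5% were called in KO cells. This list and that of other pathway genes were chosen with earlier results of these data known. Their counts, here and below, therefore describe these data and are no independent test. Cdx1, a homeobox gene of the posterior embryo, averaged 0.625 ± 0.545 CPM in FCS and 205 ± 112 CPM in 2i (SD, n = 6 each, log2 fold change -8.41 ± 0.37, adjusted p = 8.58e-13). Stra8, a gene of meiotic entry that retinoic acid induces in germ cells, averaged 3.24 ± 2.74 CPM in FCS and 96.1 ± 56.9 CPM in 2i (-4.91 ± 0.67, adjusted p = 1.49e-05). Meis2 (-4.69), and the Hox genes Hoxb4 (-5.79) and Hoxa4 (-4.99) were the others among the 5 with the largest change. Hoxb4 and Hoxa4 were low, with 4.6 ± 3.66 and 1.22 ± 0.636 CPM even in 2i. The 2 that rose were Col4a1 and Lamb1, which encode basement membrane chains.

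The responsive genes were mostly higher in EpiSC medium than in FCS, while EpiSC medium and 2i differed in both directions. Against FCS, 15 genes rose and 2 fell in WT cells (median 1.93, all genes -0.01), where 20.4% of all genes rose and 20.6% fell. Hoxb4 (5.79), Nr2f2 (4.89), Meis2 (4.26) and Hoxb1 (3.78) had the largest rises. Stra8 fell in this fit (-3.93), with a median of 0.0771 CPM in EpiSC medium and 2.33 CPM in FCS, but 1 EpiSC library held 32.3 CPM and the mean was higher in EpiSC medium. Against 2i, 9 rose and 6 fell (median 0.17, all genes -0.07), where 25.1% of all genes rose and 27.4% fell. These counts were 5 and 7 without Bod1L WT EpiSC replicate 1, and 5 and 6 without Setd1a WT EpiSC replicate 1. Cdx1 (-10.25) and Stra8 (-8.85) fell furthest there, with Cdx1 at 0.433 ± 0.558 CPM and Stra8 at 5.85 ± 13 CPM in EpiSC medium (SD, n = 6). Col4a1 (4.67) and Lamb1 (3.30) rose.

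**Figure D3:**
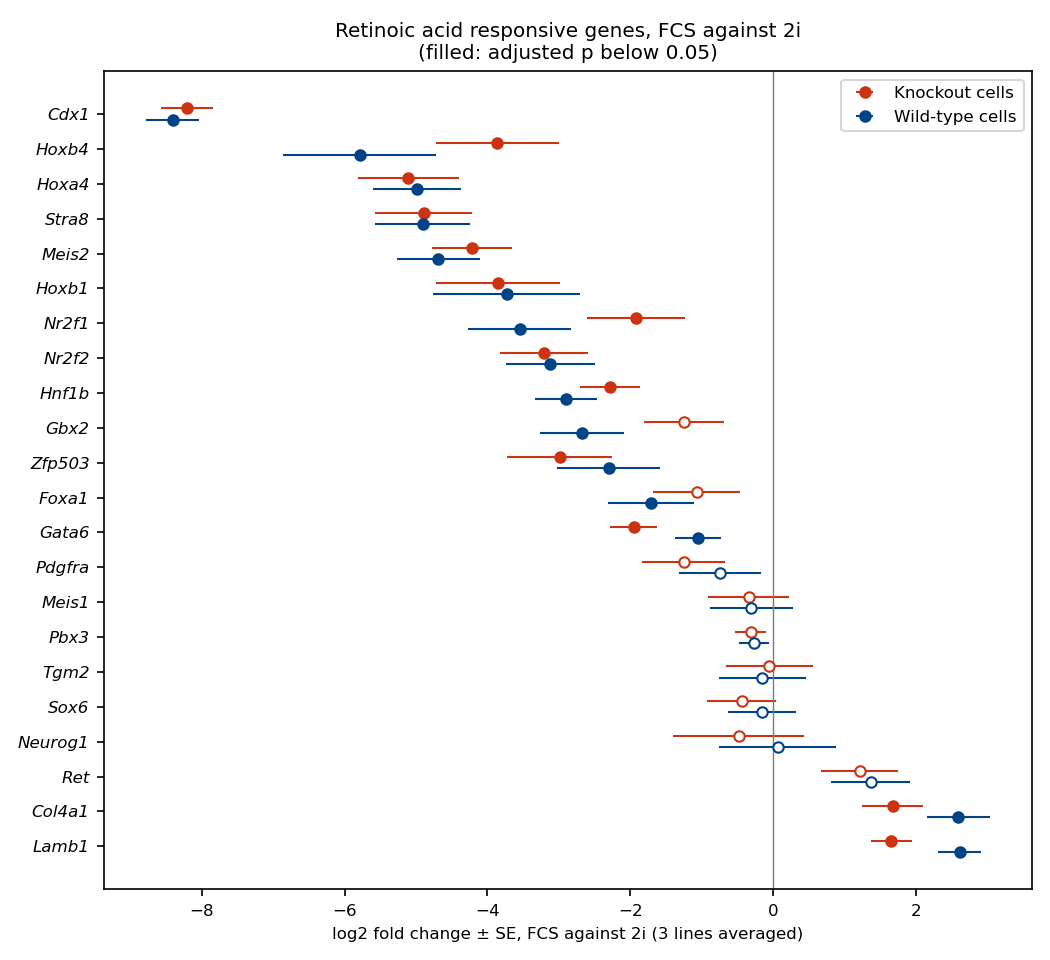
Log2 fold change ± SE of 22 of the 24 retinoic acid responsive genes for FCS against 2i, averaged over 3 lines, in knockout cells (red) and wild-type cells (blue). Filled points have an adjusted p below 0.05. Most genes lie left of 0 in both, and Cdx1 lies furthest (-8.21 in knockout and -8.41 in wild-type cells).

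Other genes of the pathway (44 genes of retinoid synthesis, storage, transport and nuclear partnership, 40 tested) went both ways. In WT cells 6 rose and 7 fell for FCS against 2i (median -0.16), 14 rose and 9 fell for EpiSC against FCS (median 0.25), and 12 rose and 11 fell for EpiSC against 2i (median -0.00). The shares of all genes called were 27.8%, 41% and 52.5% in these comparisons. Without Bod1L WT EpiSC replicate 1, EpiSC against FCS gave 9 rises and 6 falls. For FCS against 2i the largest changes were in Rxrg, an RXR partner (4.95), the alcohol dehydrogenases Adh1 (-3.97) and Adh7 (2.65), Lrat, which stores retinol as esters (2.24), and Bco1, which cleaves carotene (-1.90, lost with either of 2 of 12 libraries left out). All 5 averaged under 2 CPM in both media. Against 2i, Rxrg averaged 3.51 ± 2.59 CPM in EpiSC medium and 0.0465 ± 0.0507 CPM in 2i (6.58, adjusted p = 9.5e-07). Aldh1a2, the main enzyme of retinoic acid synthesis in the embryo, is named after its values were seen. It averaged 0.894 ± 0.438 CPM in EpiSC medium, 2.8 ± 0.899 CPM in FCS and 11.4 ± 8.12 CPM in 2i (SD, n = 6 each). Aldh1a2 fell in EpiSC medium against 2i (-3.50, adjusted p = 2.87e-06) and in FCS against 2i (-1.82, adjusted p = 0.00342). Other genes of this list went the other way in EpiSC medium against 2i. Among them were Aldh1a1 (4.42, adjusted p = 3.44e-05), Aldh1a7 (4.03, adjusted p = 4.2e-05) and Rdh10 (1.89, adjusted p = 4.06e-06), so synthesis genes did not move as a set.

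The second question was whether loss of SETD1A or MLL2, enzymes that methylate histone H3, or of BOD1L, a protein of the SETD1A complex, changes these genes. Called effects were few, and without pairing of cultures they were in the degrading enzymes of the Setd1a line. In 2i, Cyp26a1 had 7.6 and 5.54 CPM in Setd1a KO cells, against 0.611 and 0.662 CPM in Setd1a WT cells. Both knockout libraries were above both WT libraries, with a log2 fold change of 3.36 ± 0.55 (adjusted p = 0.00119), and Cyp26a1 was the 1 of 9 genes called where 1.69% of all genes were called (0.251% higher). Leaving out each library in turn gave 3.13 to 3.61 with adjusted p-values of 0.00838 to 0.0364. The same KO and WT libraries also differed in mitochondrial share (7.32% and 7.71% of counts in KO, 4.11% and 3.43% in WT), in feeder or mesenchymal markers (44.8 and 45.5 CPM in KO, 13.7 and 16 CPM in WT), in primed markers (324 and 320 CPM in KO, 206 and 202 CPM in WT) and in primitive endoderm markers (71.3 and 71 CPM in KO, 31 and 32 CPM in WT). Of the primitive endoderm markers, Foxa2 and Sox7 were below 1 CPM in every 2i library. The part of these differences in the Cyp26a1 value was not tested. One of these knockout libraries, replicate 1, is the 2i library of the later series, and without it the value was 3.13 (adjusted p = 0.0166). In FCS Setd1a KO cells had 1.59 and 2.42 CPM and WT cells 2.25 and 1.83 CPM (-0.02 ± 0.49), and in EpiSC medium KO cells had 5.01 and 2.6 CPM and WT cells 1.71 and 2.5 CPM (0.86 ± 0.49, adjusted p = 0.508). In those media edgeR called 0 of 9 genes (0.762% of all genes in FCS and 1.54% in EpiSC medium), with 1 (Cyp26b1) and 0 at an unadjusted p below 0.05, and DESeq2 called 0 in each. Averaged over media Cyp26a1 rose by 1.40 ± 0.29 (adjusted p = 0.00308).

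Cyp26b1 was higher in Setd1a KO than in WT cells in every medium, at low level. KO cells had 1.49 and 1.1 CPM in EpiSC medium, 0.548 and 0.798 CPM in FCS and 1.31 and 0.785 CPM in 2i. WT cells had 0.512 and 0.346 CPM, 0.218 and 0.0949 CPM, and 0.428 and 0.313 CPM in the same media. The average rise was 1.72 ± 0.52 (adjusted p = 0.04), and leaving out any of 11 of the 12 libraries ended the call (adjusted p up to 0.119), as did edgeR's bias-adjusted quasi-likelihood (adjusted p = 0.0737). No single medium was called for Cyp26b1 (1.49 to 2.10, adjusted p of 0.489 to 0.676). Together with Cyp26a1 this made 2 of 9 genes called over the average of media, where 8.85% of all genes were called (3.29% higher).

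Same-numbered KO and WT cultures deviated together in all 9 line and medium combinations, so a fit with these pairs as a block was also made. In it 26% of all genes were called in the Setd1a average, and 6 of 9 members: Cyp26a1 (1.38 ± 0.23, adjusted p = 0.000201), Cyp26b1 (1.73 ± 0.34, adjusted p = 0.000983), Rarg (0.78 ± 0.12, adjusted p = 0.000128) and Rarb (1.31 ± 0.41, adjusted p = 0.0243) rose, and Crabp2 (-1.32 ± 0.17, adjusted p = 1.75e-05) and Rara (-0.32 ± 0.10, adjusted p = 0.0288) fell. Without the block these 4 additional genes had adjusted p-values of 0.113 to 0.323. Crabp2 had 4.35 and 5.91 CPM in Setd1a KO cells and 11.5 and 14.2 CPM in WT cells in EpiSC medium, and 1.03 and 0.785 CPM in KO and 3.3 and 2.86 CPM in WT cells in 2i, with no overlap in either medium. In FCS its KO libraries had 9.24 and 3.78 CPM and its WT libraries 17.2 and 6.84 CPM, and these overlapped. Rarg in 2i had 252 and 238 CPM in Setd1a KO cells and 111 CPM in both WT libraries. With the block, Setd1a 2i called Cyp26a1 (3.35, adjusted p = 4.92e-05), Rarg (1.14, adjusted p = 0.00163) and Crabp2 (-1.76, adjusted p = 0.00189), 12.4% of all genes being called. Crabp2 was the 1 member called in Setd1a EpiSC cells (-1.33, adjusted p = 0.00476, 11.9% of all genes).

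In the Mll2 line edgeR called 0 of 9 genes in each medium and on average, with 0 at an unadjusted p below 0.05 and 0 by DESeq2 in each (0.464%, 0% and 0% of all genes were called in 2i, FCS and EpiSC medium and 0.694% on average). Cyp26a1, at 156 and 140 CPM in EpiSC Mll2 KO cells and 174 and 236 CPM in WT cells, differed by -0.47 ± 0.46 (adjusted p = 1). Rarb in 2i had 25.7 and 22.5 CPM in Mll2 KO cells and 8.47 and 7.09 CPM in WT cells, which did not overlap (1.63 ± 0.98, adjusted p = 0.591), and with the block it was called (1.63 ± 0.41, adjusted p = 0.0179, 6.96% of all genes). Crabp1 in EpiSC medium had 23.1 and 0.204 CPM in Mll2 KO cells and 2.56 and 1.17 CPM in WT cells, so its sign depended on 1 library.

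In the Bod1L line edgeR also called 0 of 9 genes in each medium and on average (0.374%, 0.191% and 0.438% of all genes in 2i, FCS and EpiSC medium, 2.03% on average). At an unadjusted p below 0.05 the count was 1 in 2i and 0 in the others, and DESeq2 called 0 in each. The 1 gene was Cyp26a1, with 3.98 and 4.04 CPM in Bod1L KO cells and 1.55 and 1.03 CPM in WT cells in 2i. The groups did not overlap (1.63 ± 0.50, adjusted p = 0.33), and with the block it was called (1.64 ± 0.38, adjusted p = 0.0207, 2.8% of all genes). In 2i Cyp26a1 was thus higher in KO than in WT libraries in all 3 lines, with 3.36 ± 0.55 in Setd1a, 0.58 ± 0.49 in Mll2 and 1.63 ± 0.50 in Bod1L cells. The Mll2 and Bod1L values were not called without the block. The share of all genes that separate in this way was not counted, here or for other KO and WT groups that did not overlap. Titles of all KO libraries name tamoxifen, so genotype and tamoxifen cannot be told apart in what the lines share. Rarg with the block rose in Bod1L KO cells in 2i (1.25, adjusted p = 0.00218), in FCS (0.90, adjusted p = 0.0357, 1.66% of all genes) and on average (0.63, adjusted p = 0.0029, 6.17%). In FCS it had 178 and 245 CPM in Bod1L KO cells and 94.7 and 133 CPM in WT cells. In 2i it had 61.4 and 139 CPM in KO and 19.9 and 74.7 CPM in WT cells, which overlapped. In EpiSC medium it had 34.1 and 62.7 CPM in KO and 36.9 and 84.3 CPM in WT cells, lower in KO in both pairs and not called.

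**Figure D4:**
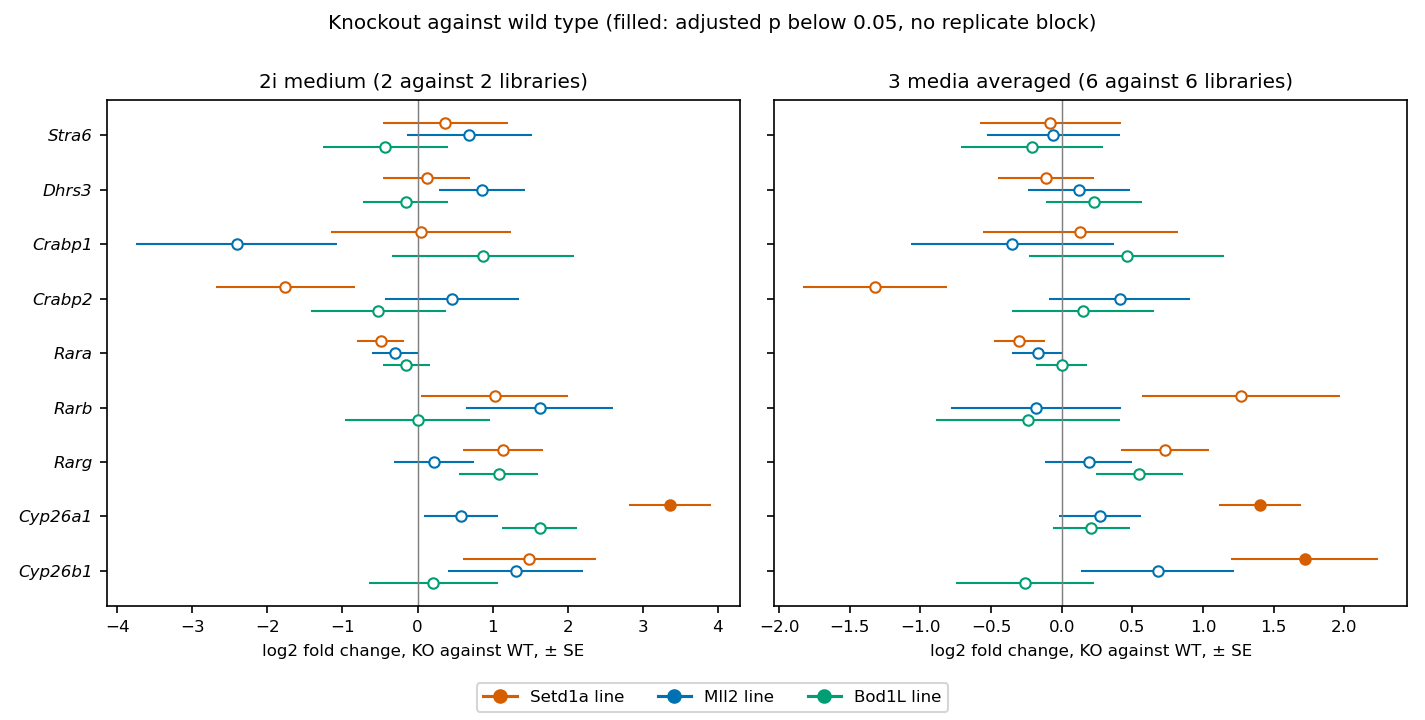
Log2 fold change ± SE, KO against WT, of the 9 genes in the Setd1a, Mll2 and Bod1L lines, in 2i (left) and averaged over 3 media (right), from the fit without the block. Filled points have an adjusted p below 0.05. These are Cyp26a1 in Setd1a cells in 2i (3.36) and on average (1.40) and Cyp26b1 in Setd1a cells on average (1.72).

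Whether knockout effects differ between lines was tested on the effects themselves, and edgeR called 0 of 9 genes in each medium and on average (0.268%, 0.0596% and 0.149% of all genes in 2i, FCS and EpiSC medium, 2.03% on average). At an unadjusted p below 0.05 there were 1, 0 and 0 in these media and 2 on average, and DESeq2 called 1 in 2i and 0 in the others. For Cyp26a1 in 2i the adjusted p was 0.256 without the block and 0.0151 with it (5.21% of all genes), where Setd1a minus Mll2 was 2.79 ± 0.57. With the block Crabp2 differed between lines in 2i, FCS and EpiSC medium (adjusted p = 0.0311, 0.0402 and 0.0393, with 1.46% of all genes called in FCS and 3.08% in EpiSC medium) and on average (adjusted p = 0.000286, 12% of all genes). On average Cyp26a1 (adjusted p = 0.0258) and Cyp26b1 (adjusted p = 0.0428) also differed between lines with the block. Whether the effect of a knockout depended on the medium was also tested, which called 0 of 9 genes in each line without the block (0% of all genes in the Setd1a line, 0.00426% in the Mll2 line and 0% in the Bod1L line), with 1 in each at an unadjusted p below 0.05 and 0 by DESeq2. With it Cyp26a1 was called in the Setd1a line (adjusted p = 0.0411, 0.179% of all genes), where 2i gave 3.35 ± 0.42, FCS -0.03 ± 0.38 and EpiSC medium 0.83 ± 0.38.

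Among other pathway genes, knockout changed few. In Setd1a KO cells, averaged over media, Rdh14, a retinal reductase (-1.56, adjusted p = 3.46e-06), Rxrb, an RXR partner (-1.03, adjusted p = 6.52e-05), and Adh5 (-0.55, adjusted p = 0.0492) fell and Rdh12 rose (1.19, adjusted p = 0.0456), 4 of 40 genes tested against 8.85% of all genes. The Adh5 call was lost with any of 10 of 12 libraries left out and the Rdh12 call with any of the 12. Rdh14 also fell in Bod1L KO cells on average (-0.97, adjusted p = 0.00192, 2.03% of all genes called). Rbp4, the plasma retinol carrier, fell in Mll2 KO cells on average (-2.72, adjusted p = 0.00545, 0.694% of all genes called). Rbp4 was low, at 0.0299 to 0.669 CPM in Mll2 KO and 0.259 to 4.41 CPM in Mll2 WT libraries. Of the 24 responsive genes, Col4a1 rose in Setd1a KO cells (1.77, adjusted p = 0.00979, up to 0.0872 with 1 library left out), while the block fit called 9 rising and 1 falling, where 26% of all genes were called. On average over media the block fit also called 4 rising and 3 falling in Mll2 KO cells. In Bod1L KO cells it called 0 rising and 2 falling (6.17% of all genes). Shares of all genes by direction in the block fit, and its share in Mll2 cells, are not given. Primitive endoderm markers (8 genes, of which Gata6 and Pdgfra are also in the responsive list) summed to 220 and 58.8 CPM in Setd1a KO cells and 111 and 46.7 CPM in WT cells in EpiSC medium. In FCS they summed to 238 and 182 CPM in KO and 126 and 95.6 CPM in WT cells, and in 2i to 71.3 and 71 CPM in KO and 31 and 32 CPM in WT cells. Sox17 and Foxa2 were below 1 CPM in every FCS library, and Foxa2 and Sox7 in every 2i library. The part of any primitive endoderm cells in these results was not tested. Pbx3, a partner of Hox proteins, fell in Mll2 KO cells on average (-1.01, adjusted p = 0.0237, lost with any of 7 of 12 libraries left out).

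The high carrier values in EpiSC medium came with markers of another cell type. Crabp1 had 435 CPM in Bod1L KO and 529 CPM in Bod1L WT replicate 1, and Crabp2 had 99.6 and 103 CPM in the same libraries, while the other 10 EpiSC libraries held 0.204 to 52.4 CPM of Crabp1 and 2.68 to 14.2 CPM of Crabp2. The 8 feeder or mesenchymal markers summed to 5256 CPM in that KO library and 6769 CPM in that WT library, and to 85.9 to 4022 CPM in the other 10. The library at 4022 CPM, Setd1a KO replicate 1, held 7.05 CPM of Crabp1 and 4.35 CPM of Crabp2. Neural markers (6 genes) were also highest in the 2 Bod1L replicate 1 libraries, with 149 CPM in KO and 191 CPM in WT, against 36.1 to 120 CPM in the other 10. The part of such cells in the carrier values was not tested, and in bulk RNA more cells of a type and more RNA per cell cannot be told apart. For Cyp26a1 the highest values lay at the other end, with 140 to 236 CPM in the 4 Mll2 libraries, where the feeder or mesenchymal markers summed to 85.9 to 162 CPM. In these 4 libraries trophoblast markers (6 genes) summed to 327 to 772 CPM, against 45.9 to 225 CPM in the other 8, and primed markers to 1017 to 1722 CPM, against 314 to 916 CPM. Of the trophoblast markers, Elf5 was below 1 CPM in every EpiSC library. The part of any trophoblast or primed cells in the Cyp26a1 values was not tested.

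**Figure D5:**
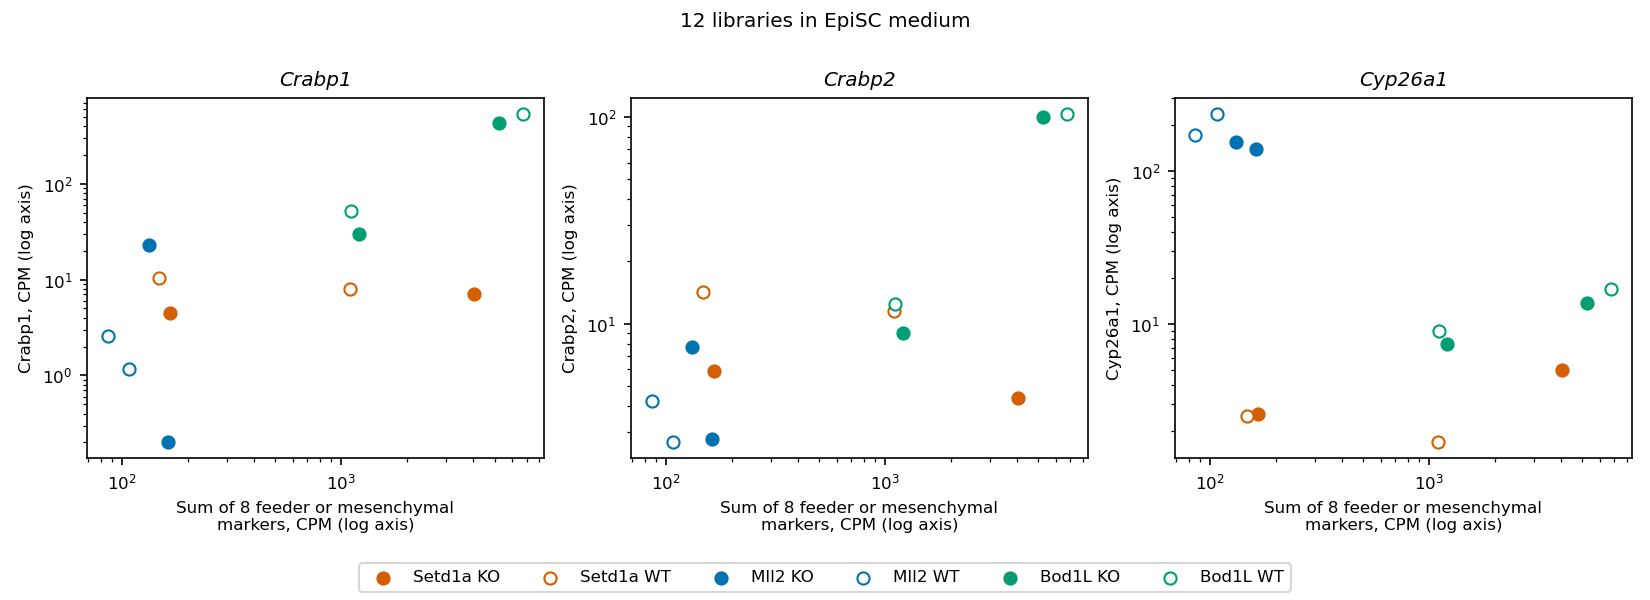
CPM of Crabp1, Crabp2 and Cyp26a1 against the summed CPM of 8 feeder or mesenchymal markers in the 12 EpiSC libraries, on log axes. Points are libraries (filled KO, open WT, coloured by line). The 2 Bod1L replicate 1 libraries lie highest for both carriers, and the 4 Mll2 libraries lie highest for Cyp26a1, at marker sums of 85.9 to 162 CPM.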

How the data were processed

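RNA was isolated with Trizol, poly(A) selected and made into strand-specific ScriptSeq libraries, per the labels' protocols. Reads were aligned with GSNAP and counted with featureCounts (1.5.2), per the submitters' processing notes. The deposited values are raw counts per gene on GRCm38 with Ensembl 87 annotation, per the labels' protocols. The 92 spike-in lines, all at 0 counts, were left out. CPM values used edgeR's TMM scaling. TPM used gene length and each library's own total, without TMM, so the 2 units can differ between libraries. Rara in Setd1a KO 2i cells had 35.9 and 34.1 CPM but 19.6 and 12.1 TPM in replicates 1 and 2. In Mll2 WT 2i cells Rara had 21.8 CPM and 11.4 TPM in replicate 1 but 23.5 CPM and 7.75 TPM in replicate 2. Both replicate 2 libraries are part of the 2i comparisons of KO and WT cells. What lowered their TPM was not tested.

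Counts were tested with edgeR 4.0.16 (limma 3.58.1, R 4.3.3), quasi-likelihood F tests, 1 coefficient for each of 18 groups over 36 libraries (18 residual degrees of freedom), and filterByExpr at a minimum count of 10, which kept 23501 genes. P-values were adjusted by Benjamini-Hochberg over these, and an adjusted p below 0.05 was called. The standard error is the log2 fold change divided by the square root of F. Scripts were tested on simulated data. The members and gene lists were chosen with earlier results of these data known. Named list genes are mostly from the 5 with the largest change among those called, and not all 5 are named in every comparison. Aldh1a2, and Aldh1a1, Aldh1a7 and Rdh10 beside it, were named after their values were seen. Genes of the lists that are not reported here by name stay in the counts and medians. DESeq2 1.42.0, other scaling, no filter, edgeR's bias-adjusted quasi-likelihood (added after the values were seen), smaller sets of libraries, a replicate block and leaving out each library were alternatives.

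Same-numbered KO and WT cultures are not stated to be paired. Their deviations from the group means correlated at 0.401 to 0.848 in all 9 line and medium combinations (12244 genes), so the block is given where it changes a call. Between media the correlations were -0.143 to 0.413 and below 0.1 in 5 of 9 pairs, so those samples were taken to share only a number.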

Additional observations from a re-analysis of the deposited data

Results flagged for a closer look

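Within each medium the 6 WT libraries of the 3 lines were searched for a library far from the rest (Dixon's critical value 0.625), and 9 of 27 groups had one. All 9 were the highest of their group. The rate of about 1 in 20 by chance holds for independent, normally distributed values. CPM of 3 lines are not such values, so the 9 cannot be set against it. These groups mix 3 lines, so a line that differs can be picked up. Bod1L replicate 1 in EpiSC medium stood out for Crabp1 (529 CPM), Crabp2 (103 CPM) and Cyp26b1 (5.71 CPM). Bod1L replicate 1 in FCS stood out for Cyp26a1 (21.7 CPM) and Dhrs3 (1.2 CPM). Bod1L replicate 2 stood out for Cyp26b1 in FCS (0.76 CPM) and in 2i (0.908 CPM). In FCS, Setd1a replicate 1 stood out for Crabp2 (17.2 CPM) and Mll2 replicate 1 for Rarb (0.528 CPM).

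The difference between media itself differed between the WT lines for Cyp26a1 (edgeR adjusted p = 1.8e-06) and Crabp1 (adjusted p = 0.0294). Cyp26a1 was highest in EpiSC medium in the Mll2 line and in FCS in the Bod1L line.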

How the results depend on the processing

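Counts below are of the 9 genes called at an adjusted p below 0.05. The planned fit without the low-count filter estimated an infinite prior degrees of freedom, so it did not use the spread of each gene, and its counts are given for completeness and support nothing. They were 1 for Bod1L KO in 2i, 3 for Setd1a KO in 2i, 1 for Mll2 KO in 2i, 1 for Mll2 KO in EpiSC medium, 5 for the Setd1a average, 1 for knockout by medium in Setd1a and also in Mll2 cells. Knockout by line gave 2 (2i), 1 (FCS), 1 (EpiSC) and 2 (average), WT EpiSC against 2i gave 4, WT lines gave 6 and WT medium by line gave 5. Therefore edgeR's bias-adjusted quasi-likelihood was added after seeing the data, and its prior was finite with the filter (4.86) and without it (13). It gave 1 for the Setd1a average with and without the filter, losing Cyp26b1 (adjusted p = 0.0737 and 0.0753), and 4 for WT EpiSC against 2i without the filter. Cyp26b1 in EpiSC medium against FCS was also lost (adjusted p = 0.122 and 0.133). Stra6 in EpiSC medium against 2i was gained (adjusted p = 0.0273 and 0.0348), and without the filter also Crabp1 against 2i in EpiSC medium (adjusted p = 0.0424) and in FCS (adjusted p = 0.0363) and Crabp2 between WT lines (adjusted p = 0.0469).

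With the replicate block pairing KO and WT cultures, Bod1L gave 2 in 2i, 1 in FCS and 1 on average. Setd1a gave 3 in 2i, 1 in EpiSC medium and 6 over the average, and Mll2 gave 1 in 2i. The block gave 1 for knockout by medium in Setd1a cells and 2 (2i), 1 (FCS), 1 (EpiSC) and 3 (average) for knockout by line. Between pairs of lines it gave 2 (2i), 1 (EpiSC) and 3 (average) for Setd1a against Mll2, and 1 for Setd1a against Bod1L (average). Between FCS and 2i it gave 1 for the Setd1a knockout effect. Each of these last 5 was 0 without it. Over all genes it called 6112 in the Setd1a average, against 2081 without it. DESeq2 gave 1 for knockout by line in 2i, 4 for WT EpiSC against 2i, 6 for FCS against 2i, 5 for WT lines and 4 for WT medium by line. WT libraries alone gave 4 for EpiSC against 2i and 5 for WT lines. A WT replicate block by number gave 3 for EpiSC against FCS and 3 for FCS against 2i, where Cyp26a1 had adjusted p-values of 0.182 and 0.158. It also ended the calls of Stra8 (-1.72, adjusted p = 0.313) and Hoxb1 (2.65, adjusted p = 0.0703) for EpiSC against FCS and of Adh7 (1.82, adjusted p = 0.137) and Lrat (1.66, adjusted p = 0.189) for FCS against 2i.

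Leaving out each library gave 1 to 2 for the Setd1a average, 2 to 5 for WT EpiSC against 2i, 4 to 6 for EpiSC against FCS, 4 to 5 for FCS against 2i, 2 to 4 for WT lines and 1 to 3 for WT medium by line. Crabp1 in Mll2 KO EpiSC cells was 2.65 and ran from -3.17 (without KO replicate 1) to 3.63 (without KO replicate 2). The 156 gene results with an unadjusted p of at least 0.05 and no call by DESeq2, a block or the fit without the filter gave 124 changes of sign and 2 calls over 2557 alternatives. Other causes were not tested. Rarb in FCS, at 0 to 17 reads a library, and Cyp26b1 are limited by depth.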
